A study of Mus musculus with 29 samples.

Results

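The NF-kappaB subunits and their inhibitors were followed across 6 groups of cytokine-stimulated mouse macrophages. The 10 genes listed were Nfkb1, Nfkb2, Rel, Rela, Relb, Nfkbia, Nfkbie, Nfkbiz, Tnfaip3 and Bcl3, and a probe set counted as a member where the annotation paired it with 1 of these genes alone. That gave 14 of the 22690 probe sets, for 9 of the 12393 genes named on the array, and Nfkb1 was not analysed here. Of the 9 genes, 8 were among the 7153 genes tested, and Tnfaip3 lay below the intensity limit on all 29 arrays.

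Bone marrow cells of C57BL/6 mice aged 8 weeks had been grown into macrophages in Teflon bags over 7 days with CSF-1, the growth factor of the macrophage lineage, at 10 ng/ml. All groups then kept CSF-1 for a further 24 h, so the control was a CSF-1-treated cell and not a resting one. The groups received no other cytokine (unstimulated, 8 arrays), IL-4 (5 arrays), IL-6 (5 arrays), IL-10 (3 arrays), the pair IL-4+IL-6 (5 arrays) or the pair IL-4+IL-10 (3 arrays), each cytokine at 10 ng/ml. The question is what the STAT3-activating cytokines IL-6 and IL-10 do by themselves and in the presence of IL-4, an activator of STAT6. Separate mice or cultures are not stated for the arrays, and p-values here reflect array-to-array spread, which may be technical.

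NF-kappaB is a family of dimeric transcription factors that drives inflammatory genes in macrophages. In resting cells the dimers are held in the cytoplasm by IkappaB proteins, which the IKK complex marks for destruction when a receptor such as a Toll-like receptor or the TNF receptor is engaged. A second group of IkappaB proteins works in the nucleus, where it binds subunits on DNA and alters which targets are transcribed, and several family genes are themselves NF-kappaB targets.

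Promoter sequence was read for the members. In the RefSeq promoter windows of GRCm38.p6, which run from 250 bases before to 50 bases after a start site, 7 of the 10 listed genes had an entry, in 10 windows (Nfkb1, Relb and Nfkbiz had none). The kappaB patterns GGGANTTTC and GGGANTTCC, searched on both strands and free to overlap each other, were found in 7 of these 10 windows and in 5 of the 7 genes (Nfkb2, Rel, Nfkbia, Tnfaip3 and Bcl3). Over all 32851 windows of that length 2.75% held a match, and 3.17% of all genes with a window did. The STAT pattern TTCNNNGAA was found in 1 of the 10 windows and 1 of the 7 genes, Nfkb2, starting 148 bases before its start site. Its share was 8.30% of all windows and 9.55% of all genes. A match is a description of the letters and not a bound site. The windows of 4 members whose RNA is described below follow, read 5′ to 3′ on the strand of the gene, with kappaB matches in capitals. They are Nfkbia at chr12:55492648-55492897 (minus strand), Rel at chr11:23770970-23771219 (minus strand), Bcl3 at chr7:19822744-19823005 (minus strand, 12 bases past the start site) and Nfkb2 at chr19:46304487-46304736 (plus strand).
Nfkbia: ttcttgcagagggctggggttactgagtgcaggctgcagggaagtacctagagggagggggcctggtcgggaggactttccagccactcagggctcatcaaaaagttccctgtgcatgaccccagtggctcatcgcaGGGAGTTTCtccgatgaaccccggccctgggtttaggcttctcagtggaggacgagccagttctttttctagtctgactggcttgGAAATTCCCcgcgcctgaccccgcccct
Rel: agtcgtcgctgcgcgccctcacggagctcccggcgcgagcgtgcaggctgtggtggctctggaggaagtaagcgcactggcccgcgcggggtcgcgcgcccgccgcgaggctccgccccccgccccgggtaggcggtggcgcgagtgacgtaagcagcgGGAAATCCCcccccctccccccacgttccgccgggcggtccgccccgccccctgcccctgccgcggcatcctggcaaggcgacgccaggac
Bcl3: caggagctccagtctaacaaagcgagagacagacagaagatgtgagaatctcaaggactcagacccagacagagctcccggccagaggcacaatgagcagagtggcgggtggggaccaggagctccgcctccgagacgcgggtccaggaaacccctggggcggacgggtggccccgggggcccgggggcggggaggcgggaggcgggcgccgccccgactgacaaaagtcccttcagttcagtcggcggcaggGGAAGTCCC
Nfkb2: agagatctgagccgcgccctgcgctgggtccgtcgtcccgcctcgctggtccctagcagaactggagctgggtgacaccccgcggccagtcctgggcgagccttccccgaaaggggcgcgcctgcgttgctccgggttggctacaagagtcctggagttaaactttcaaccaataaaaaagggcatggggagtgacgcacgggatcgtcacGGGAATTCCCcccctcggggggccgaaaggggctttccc
The Nfkbia window held 2 matches, starting 113 and 28 bases before the start site. In Rel the match started 91 bases before the start site, and in Bcl3 it began at base 4 after it. The capitals in Nfkb2 are overlapping matches that start 39 and 38 bases before the start site. Nfkb2 also had kappaB matches in windows of other start sites, not printed here. Its windows beginning at chr19:46305445 and chr19:46305680 overlap and share a GGGACTTTC match, which is counted in each.

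Values are log2 intensities, in which a difference of 1 is a 2-fold difference. The median of all values, 6.99, served as the limit under which a group mean may be held up by background. Array medians spanned 6.95 to 7.03 and pairs of arrays correlated at 0.973 to 0.998, with 0 identical pairs. All 8 macrophage markers (such as Adgre1, Csf1r and Cd68) lay above the limit in every group, whereas 0 of the 5 measured T and NK lymphocyte markers, 0 of 5 mast cell and basophil markers and 0 of 5 fibroblast markers did. Of 5 dendritic cell markers 0 or 1 lay above it, of 6 B lymphocyte markers 1 to 3, and of 6 neutrophil markers 4 in every group, with Mpo and Elane, enzymes of neutrophil granules, under it throughout. The mean over the macrophage markers ran from 12.58 to 12.73 on unstimulated arrays, from 12.89 to 13.03 with IL-6 or IL-10 alone and from 11.78 to 12.11 in the 3 groups with IL-4. Only the unstimulated group has replicates 6 to 8, and from these numbers the arrays were taken as 2 sets, unstimulated 6 to 8 with both IL-10 groups and unstimulated 1 to 5 with the others. The labels do not state these sets. The mean over B lymphocyte markers was 6.27 to 6.33 with IL-10 and 5.76 to 6.02 with IL-4+IL-10, against 7.02 to 7.79 with IL-6. It was 6.29 to 7.83 on the unstimulated arrays of both sets together. From these ranges a difference between the sets cannot be told apart from one with IL-10. The mean over neutrophil markers was 8.49 to 8.91 on unstimulated arrays and lower without overlap with IL-4+IL-6 (8.09 to 8.46), as S100a8, a calcium-binding protein of neutrophils and macrophages, went from a mean of 11.68 to 10.74. It was 8.26 to 8.61 with IL-4, 8.21 to 8.66 with IL-4+IL-10, 8.37 to 8.68 with IL-6 and 8.63 to 8.98 with IL-10. The 3′ minus 5′ difference of Actb, a sign of RNA quality, was 0.318 ± 0.0089 (SD, n = 5) on unstimulated arrays 1 to 5 and 0.441 ± 0.070 (SD, n = 3) on 6 to 8. Within the first set it also differed between groups, the IL-6 arrays (0.220 to 0.263) lying below all of unstimulated 1 to 5 (0.309 to 0.329) and the IL-4+IL-6 arrays (0.345 to 0.391) above, with IL-4 at 0.294 to 0.340. In the second set it was 0.310 to 0.363 with IL-10, 0.377 to 0.441 with IL-4+IL-10 and 0.366 to 0.504 on unstimulated 6 to 8. The part of marker level, RNA quality and set in the results was not tested beyond the values with a term for the set given beside them. In a bulk sample, fewer cells of a type and less RNA per cell cannot be told apart.

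The subunit genes did not move as 1 group. Rel rose with IL-4, alone or combined, while Relb and Rela fell with IL-4 and IL-4+IL-6 and rose with IL-10. The probe set used for Nfkb2 was called in the same directions, but these calls were lost with a term for the set. The other Nfkb2 probe set was called, of these groups, only with IL-4+IL-6.

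Rel encodes c-Rel, a transactivating subunit of lymphoid and myeloid cells. On unstimulated arrays its level ran from 6.97 through a median of 7.19 to 7.41. It was 8.05, 8.02, 7.98, 7.86 and 7.91 with IL-4, 8.01, 7.73, 7.70, 7.74 and 7.80 with IL-4+IL-6, and 7.94, 7.87 and 7.93 with IL-4+IL-10. Every array of the 3 groups with IL-4 lay above every array of the groups without it, so the groups did not overlap. With IL-6 it was 6.93, 6.96, 6.87, 6.81 and 6.76, all under the limit, and with IL-10 it was 7.38, 7.17 and 6.88. The difference from unstimulated was 0.79 ± 0.068 (SE) with IL-4, 1.72-fold, at an adjusted p of 1.06e-10 (limma). It was 0.62 ± 0.068 with IL-4+IL-6 (adjusted p = 4.90e-09) and 0.73 ± 0.081 with IL-4+IL-10 (adjusted p = 6.52e-09). With IL-6 the measured difference of Rel was -0.31 ± 0.068 (adjusted p = 0.000557), for which no fold is given, and with IL-10 the difference was -0.03 ± 0.081 (adjusted p = 0.763). Among the subunits with a value, Rel was the 1 that rose with IL-4.

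Relb encodes RelB, the partner subunit of the slower non-canonical pathway. It was 8.35, 8.52 and 8.75 at the lowest, median and highest unstimulated array. With IL-4 it was 7.99, 7.86, 7.90, 7.71 and 7.71, and with IL-4+IL-6 it was 7.90, 7.77, 7.77, 7.60 and 7.61. Both groups lay wholly below the unstimulated arrays. Relb was 8.84, 8.82, 8.81, 8.68 and 8.49 with IL-6, 8.80, 9.23 and 8.96 with IL-10, and 7.91, 8.42 and 8.13 with IL-4+IL-10. The IL-10 arrays all lay above the unstimulated ones, whereas IL-6 and IL-4+IL-10 overlapped with them. The called falls were -0.68 ± 0.082 (1.61-fold lower, adjusted p = 5.36e-08) with IL-4, -0.79 ± 0.082 (adjusted p = 1.64e-09) with IL-4+IL-6 and -0.37 ± 0.098 (adjusted p = 0.0016) with IL-4+IL-10. It rose by 0.48 ± 0.098 with IL-10 (1.39-fold, adjusted p = 0.000292) and by 0.21 ± 0.082 with IL-6 (adjusted p = 0.0416). The IL-6 call was lost when any of 8 single arrays was left out, namely IL-6 replicates 1 to 4 and unstimulated replicates 3, 4, 5 and 8, with adjusted p-values from 0.0528 to 0.11, and without the intensity filter (0.069).

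Rela encodes RelA, the main transactivating subunit of the canonical pathway. It stayed within a narrow span, from 10.00 to 10.82 over all 29 arrays. Unstimulated arrays had 10.26, 10.33 and 10.54 as lowest, median and highest value, and the IL-4 arrays (10.08 to 10.21) and IL-4+IL-6 arrays (10.00 to 10.18) lay below all of them. The IL-10 arrays, at 10.60, 10.82 and 10.61, lay above all of them. The called differences were -0.20 ± 0.049 with IL-4 (adjusted p = 0.000964), -0.26 ± 0.049 with IL-4+IL-6 (adjusted p = 2.82e-05) and 0.33 ± 0.058 with IL-10 (adjusted p = 4.48e-05). With IL-6 the difference was 0.09 ± 0.049 (adjusted p = 0.128), and with IL-4+IL-10 it was 0.02 ± 0.058 (adjusted p = 0.814). Unstimulated replicates 6 to 8 lay 0.13 above replicates 1 to 5 without overlap. With a term for the set the IL-10 rise was 0.25 ± 0.064 (adjusted p = 0.00439) and the IL-4 difference -0.15 ± 0.050 (adjusted p = 0.0124), both still called. With the replicate block within set the IL-6 difference was 0.14 ± 0.034 and was called (adjusted p = 0.00137), and with a term for the set alone it was 0.14 ± 0.050 (adjusted p = 0.0244). The call also came without unstimulated replicate 7, at 0.12 (adjusted p = 0.0351).

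Nfkb2 encodes the precursor that retains RelB and is processed to its DNA-binding partner. Its values overlapped with the unstimulated range (7.82 to 8.29, median 8.20) in all 5 stimulated groups. Its difference was -0.23 ± 0.075 with IL-4 (adjusted p = 0.00921) and -0.22 ± 0.075 with IL-4+IL-6 (adjusted p = 0.0109). It was 0.22 ± 0.075 higher with IL-6 (adjusted p = 0.0211), 0.30 ± 0.089 higher with IL-10 (adjusted p = 0.00962) and 0.02 ± 0.089 higher with IL-4+IL-10 (adjusted p = 0.886, not called). With a term for the set the adjusted p became 0.0524 for IL-4, 0.0609 for IL-4+IL-6 and 0.123 for IL-10. The IL-10 difference was 0.20 (adjusted p = 0.148) without IL-10 replicate 2, and the IL-6 call was lost without IL-6 replicate 1 (0.18, adjusted p = 0.0812) or replicate 2 (0.21, adjusted p = 0.0519). The other Nfkb2 probe set was not called with IL-4 (-0.12 ± 0.079, adjusted p = 0.218), IL-6 (0.06 ± 0.079, adjusted p = 0.588) or IL-10 (0.13 ± 0.094, adjusted p = 0.306). With IL-4+IL-6 it was called at -0.25 ± 0.079 (adjusted p = 0.00672).

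**Figure D1:**
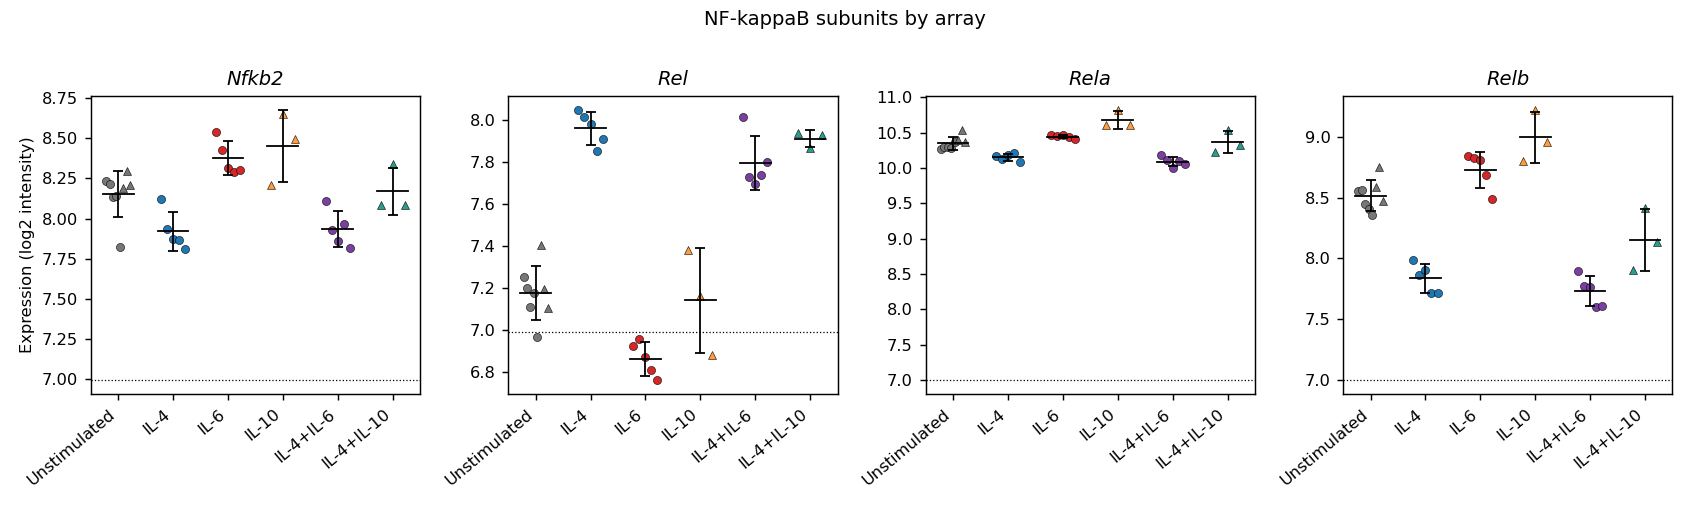
Expression (log2 intensity) of Nfkb2, Rel, Rela and Relb on each array by group, circles for the first set and triangles for the second, with the mean and SD as bars and the dotted line at the intensity limit of 6.99; the vertical axes differ between genes. Rel sits between 7.70 and 8.05 in the 3 groups with IL-4 and at 7.41 or below elsewhere, while Relb is highest with IL-10 (mean 8.998) and lowest with IL-4+IL-6 (mean 7.73).

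The cytoplasmic inhibitors Nfkbia and Nfkbie fell with IL-4 and had their lowest group means with IL-4+IL-6. Nfkbia encodes IkappaB-alpha, the inhibitor that is destroyed and resynthesised in each cycle of activation. Its level was 12.22 at the lowest, 12.25 at the median and 12.62 at the highest unstimulated array. It was 11.88, 11.99, 11.86, 11.79 and 11.74 with IL-4, 11.34, 11.44, 11.37, 11.28 and 11.35 with IL-4+IL-6, and 11.75, 11.91 and 11.82 with IL-4+IL-10. All 3 groups lay below the unstimulated arrays, and IL-4+IL-6 lay below the other groups as well. With IL-6 the values were 12.44, 12.48, 12.40, 12.36 and 12.38, and with IL-10 they were 12.70, 12.84 and 12.77, above all unstimulated arrays. The Nfkbia falls were -0.50 ± 0.061 with IL-4 (1.42-fold lower, adjusted p = 5.75e-08), -0.997 ± 0.061 with IL-4+IL-6 (2.0-fold lower, adjusted p = 2.08e-14) and -0.53 ± 0.072 with IL-4+IL-10 (adjusted p = 3.14e-07). It rose by 0.41 ± 0.072 with IL-10 (adjusted p = 4.27e-05), and with IL-6 the difference was 0.06 ± 0.061 (adjusted p = 0.487).

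The unstimulated arrays were split by set for this gene. Replicates 1 to 5 had 12.24 ± 0.017 (SD, n = 5) and replicates 6 to 8 had 12.55 ± 0.067 (SD, n = 3), without overlap. Against the controls of its own set the IL-10 difference was 0.22 ± 0.055 (adjusted p = 0.00347), 0.41 being its value against all 8 controls. The IL-6 difference against its own controls was 0.18 ± 0.042 and was called (adjusted p = 0.00169). The replicate block within set gave 0.18 ± 0.036 (adjusted p = 0.000352). The IL-4+IL-10 difference against the same set was -0.73 ± 0.055 (adjusted p = 7.72e-12).

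Nfkbie encodes IkappaB-epsilon, an inhibitor that holds RelA and c-Rel dimers. Unstimulated arrays ran from 7.51 through 7.68 to 7.97. With IL-4+IL-6 the values were 6.54, 6.70, 6.53, 6.37 and 6.49, all under the limit, so the measured difference of -1.19 ± 0.064 (adjusted p = 9.28e-16) is given without a fold. With IL-4+IL-10 the values were 7.15, 7.31 and 7.15, a difference of -0.52 ± 0.076 (1.43-fold lower, adjusted p = 9.21e-07). Both combinations lay below every unstimulated array. With a single cytokine the groups overlapped with the unstimulated arrays, at 7.38 to 7.53 with IL-4, 7.33 to 7.59 with IL-6 and 7.57 to 7.71 with IL-10. Nfkbie fell by 0.26 ± 0.064 with IL-4 (adjusted p = 0.000981) and by 0.26 ± 0.064 with IL-6 (adjusted p = 0.00171). With IL-10 the difference was -0.07 ± 0.076 (adjusted p = 0.487), and with the replicate block within set it was -0.20 ± 0.069 and was called (adjusted p = 0.0242).

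Tnfaip3 encodes a ubiquitin-editing enzyme that shuts off signalling upstream of IKK. Its only probe set lay between 5.99 and 6.71 over all 29 arrays and exceeded the limit on 0 of them, so it was not tested. The group means were 6.52 ± 0.088 (SD, n = 8) without cytokine, 6.39 ± 0.14 (SD, n = 5) with IL-4, 6.46 ± 0.097 (SD, n = 5) with IL-6 and 6.36 ± 0.13 (SD, n = 3) with IL-10. They were 6.26 ± 0.098 (SD, n = 5) with IL-4+IL-6 and 6.18 ± 0.16 (SD, n = 3) with IL-4+IL-10. No order is read from values at this level.

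**Figure D2:**
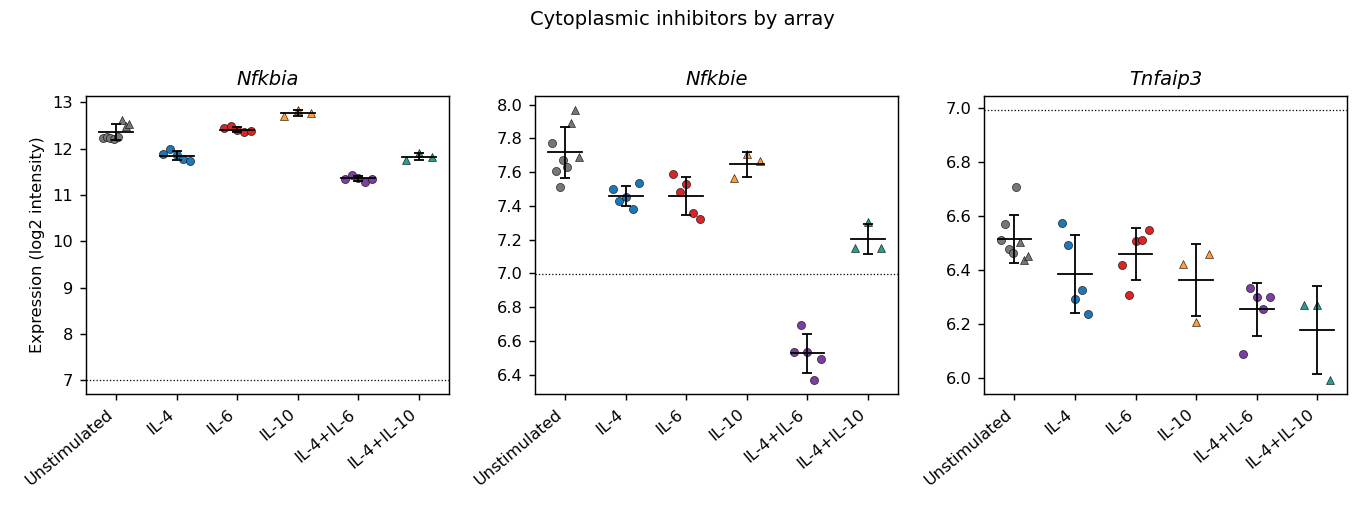
Expression (log2 intensity) of Nfkbia, Nfkbie and Tnfaip3 on each array by group, circles for the first set and triangles for the second, with the mean and SD as bars and the dotted line at the intensity limit of 6.99; the vertical axes differ between genes. Nfkbia and Nfkbie are lowest with IL-4+IL-6 (means 11.36 and 6.53), and all Tnfaip3 values lie under the limit.

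Both nuclear IkappaB genes rose with IL-6 and with IL-10, by more than any other tested member differed from unstimulated in those 2 groups. They parted when IL-4 was present, with Nfkbiz near the limit in every group with IL-4 and Bcl3 above its unstimulated mean in both combinations. Nfkbiz encodes IkappaB-zeta, a nuclear cofactor required for a subset of inflammatory genes. Unstimulated arrays ran from 9.29 through 9.44 to 9.64. Nfkbiz was 10.41, 10.39, 10.34, 10.41 and 10.52 with IL-6 and 10.31, 10.40 and 10.58 with IL-10. It was 7.31, 7.26, 7.09, 7.07 and 6.93 with IL-4. The 3 ranges above, at baseline and below did not meet, and the IL-6 and IL-10 arrays overlapped with each other. Adding IL-6 to IL-4 left it at 7.14, 6.94, 6.85, 6.71 and 6.86, and adding IL-10 left it at 6.68, 6.87 and 6.60, with 4 of 5 and 3 of 3 arrays under the limit. Against unstimulated, Nfkbiz rose by 0.96 ± 0.070 with IL-6 (1.94-fold, adjusted p = 7.54e-12) and by 0.97 ± 0.083 with IL-10 (1.96-fold, adjusted p = 2.33e-10). It fell by 2.33 ± 0.070 with IL-4 (5.02-fold lower, adjusted p = 6.39e-21). The measured differences in the combinations were -2.56 ± 0.070 with IL-4+IL-6 (adjusted p = 1.76e-22) and -2.74 ± 0.083 with IL-4+IL-10 (adjusted p = 5.65e-21), without a fold since both means lie under the limit.

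Bcl3 encodes a nuclear IkappaB protein that binds DNA-bound homodimers of the Nfkb1 and Nfkb2 products. Its unstimulated values ran from 8.18 through 8.33 to 8.57. Bcl3 was 9.81, 9.75, 9.67, 9.58 and 9.61 with IL-6 and 9.61, 9.87 and 9.81 with IL-10. These arrays were the highest of all 29. It was 8.23, 7.99, 7.90, 7.87 and 7.62 with IL-4, 8.94, 9.04, 8.85, 8.86 and 8.89 with IL-4+IL-6, and 8.42, 8.94 and 8.66 with IL-4+IL-10. The IL-4+IL-6 arrays lay above all unstimulated arrays, and the IL-4 and IL-4+IL-10 arrays overlapped with them. Bcl3 rose by 1.33 ± 0.082 with IL-6 (2.52-fold, adjusted p = 2.58e-13), by 1.41 ± 0.098 with IL-10 (2.66-fold, adjusted p = 3.74e-12) and by 0.56 ± 0.082 with IL-4+IL-6 (1.48-fold, adjusted p = 6.69e-07). It fell by 0.43 ± 0.082 with IL-4 (adjusted p = 5.96e-05). The rise of 0.32 ± 0.098 with IL-4+IL-10 (adjusted p = 0.00477) rested on 1 array, being 0.19 ± 0.10 (adjusted p = 0.118) without IL-4+IL-10 replicate 2.

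**Figure D3:**
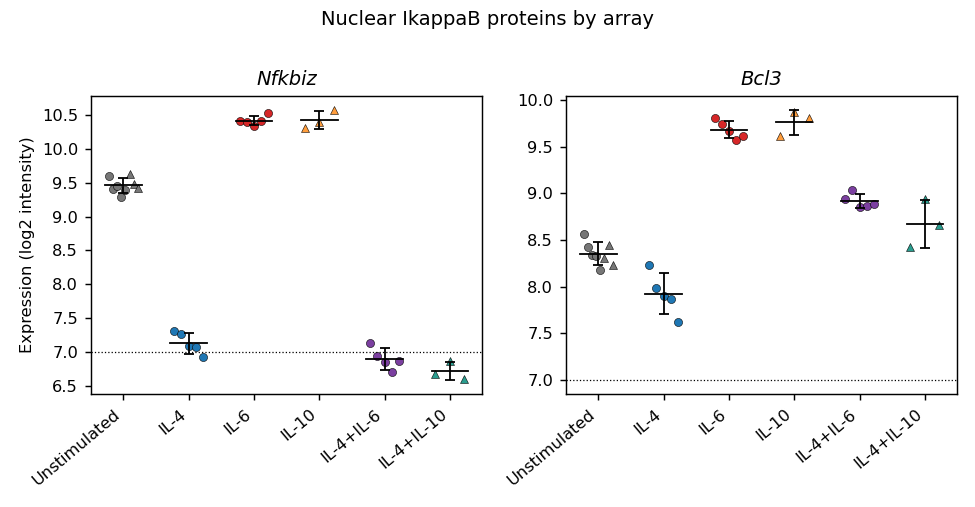
Expression (log2 intensity) of Nfkbiz and Bcl3 on each array by group, circles for the first set and triangles for the second, with the mean and SD as bars and the dotted line at the intensity limit of 6.99. Both genes are highest with IL-6 and IL-10, while with IL-4+IL-6 Nfkbiz has a mean of 6.90 and Bcl3 one of 8.92.

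The members' calls against unstimulated macrophages stand beside a background in which many genes were called. With IL-4, 59.5% of all genes tested were called, 27.6% higher and 31.9% lower, and of the members 1 (Rel) was higher and 7 lower. The members' median difference was -0.34 and that of all genes -0.01. With IL-6, 39.3% of genes were called (16.1% higher, 23.2% lower), and of the members 4 were higher (Nfkb2, Relb, Nfkbiz, Bcl3) and 2 lower (Rel, Nfkbie), with medians of 0.15 for the members and -0.03 for all genes. Nfkbia and Rela joined the higher ones with the replicate block within set.

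With IL-10, 37.8% of genes were called (18.3% higher, 19.5% lower), and 6 members were higher and 0 lower, Rel and Nfkbie not being called. The median was 0.37 for the members and 0.00063 for all genes. With IL-4+IL-6, 73.8% of genes were called (35.0% higher, 38.8% lower). Rel and Bcl3 were higher and the other 6 members lower, at medians of -0.52 and -0.02. With IL-4+IL-10, 72.1% of genes were called (38.1% higher, 34.0% lower), with Rel and Bcl3 higher, Relb, Nfkbia, Nfkbie and Nfkbiz lower, and Nfkb2 and Rela not called. The medians were -0.18 and 0.02. All 5 comparisons share the same 8 control arrays.

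**Figure D4:**
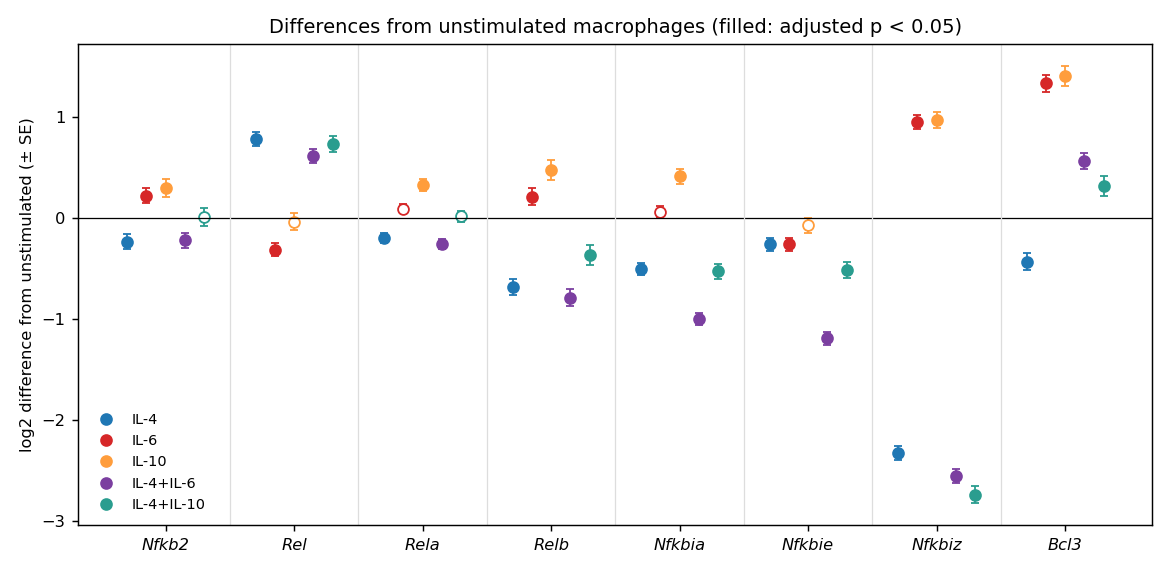
Log2 difference from unstimulated macrophages with its SE for the 8 tested members, by stimulation (n = 5 arrays with IL-4, IL-6 and IL-4+IL-6, n = 3 with IL-10 and IL-4+IL-10, n = 8 unstimulated); filled circles are called at an adjusted p under 0.05. Nfkbiz spans from -2.74 with IL-4+IL-10 to 0.97 with IL-10, and Rel alone lies above 0 with IL-4.

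When IL-4 was added to IL-6, 66.9% of all genes tested were called (34.0% higher, 32.9% lower) and all 8 members were, 1 higher and 7 lower. Rel was 0.93 ± 0.076 higher in IL-4+IL-6 than in IL-6 (adjusted p = 1.71e-11), the IL-6 mean lying under the limit. Nfkbiz was the furthest apart at -3.52 ± 0.077 (adjusted p = 2.67e-24), followed by Nfkbia at -1.05 ± 0.068 (2.08-fold lower), Relb at -1.002 ± 0.091 (2.0-fold lower) and Nfkbie at -0.93 ± 0.071. Bcl3 was at -0.77 ± 0.091 (1.70-fold lower, adjusted p = 2.74e-08), Nfkb2 at -0.44 ± 0.083 and Rela at -0.35 ± 0.054. For all 8 members the arrays of these groups did not overlap, which held for 54.9% of all genes tested.

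When IL-4 was added to IL-10, 59.9% of genes were called (31.8% higher, 28.1% lower) and all 8 members were again called, Rel higher and 7 lower. Nfkbiz differed by -3.71 ± 0.10 (adjusted p = 1.11e-21), Bcl3 by -1.09 ± 0.12 (2.13-fold lower), Nfkbia by -0.94 ± 0.087 (1.92-fold lower) and Relb by -0.85 ± 0.12 (1.80-fold lower). Rel was 0.77 ± 0.098 higher (1.71-fold), with Nfkbie at -0.44 ± 0.091 and Rela at -0.31 ± 0.070. Nfkb2 was at -0.28 ± 0.11 (adjusted p = 0.0258), with overlapping arrays, and was not called when IL-10 replicate 2 or 3 or IL-4+IL-10 replicate 1 or 3 was left out (adjusted p from 0.0755 to 0.18), or when the 2 groups were fitted by themselves (0.0754).

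Fewer members were called in the reverse additions. IL-6 added to IL-4 called 60.5% of all genes (29.4% higher, 31.2% lower) and 4 of the 8 members. Bcl3 rose by 0.995 ± 0.091 (1.99-fold, adjusted p = 2.56e-10), and Nfkbia fell by 0.49 ± 0.068 (1.41-fold lower, adjusted p = 4.12e-07). Nfkbie fell by 0.93 ± 0.071 (adjusted p = 4.89e-12) and Nfkbiz by 0.23 ± 0.077 (adjusted p = 0.0112), both to means under the limit. The Nfkbiz call was lost when the gene's 2 probe sets were averaged (-0.09 ± 0.097, adjusted p = 0.429), the other one being at 0.05 ± 0.16 by itself (adjusted p = 0.815). Rel was -0.17 ± 0.076 (adjusted p = 0.0585) and Relb -0.11 ± 0.091 (adjusted p = 0.328). Both were called lower with the replicate block within set, Rel at -0.17 ± 0.054 (adjusted p = 0.0092) and Relb at -0.11 ± 0.042 (adjusted p = 0.0298). The Rel difference was called without IL-4+IL-6 replicate 1 too (-0.22, adjusted p = 0.0134), and without IL-4 replicate 4 (-0.19, adjusted p = 0.0411).

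IL-10 added to IL-4 called 57.3% of all genes (32.7% higher, 24.6% lower) and 6 of the 8 members, 4 higher and 2 lower. Bcl3 rose by 0.75 ± 0.11 (1.68-fold, adjusted p = 1.24e-06), and Nfkbie fell by 0.26 ± 0.082 (adjusted p = 0.00932) and Nfkbiz by 0.41 ± 0.089 (adjusted p = 0.000314). The Nfkbiz fall was to a mean under the limit, and the other Nfkbiz probe set, under it in both groups, was called the opposite way at 0.43 ± 0.18 (adjusted p = 0.0469). Relb, Nfkb2 and Rela were 0.32, 0.25 and 0.21 higher, and none of these 3 was called without IL-4+IL-10 replicate 2 (adjusted p from 0.0999 to 0.209). This comparison runs across the sets, since IL-4 and IL-4+IL-10 lie in different ones. With the replicate block within set, Nfkb2 was 0.13 ± 0.077 (adjusted p = 0.192) and Rela 0.08 ± 0.055 (adjusted p = 0.242), Relb was called at 0.18 ± 0.069 (adjusted p = 0.0387) but not with a term for the set (0.18 ± 0.15, adjusted p = 0.367), and Nfkbia went from -0.02 ± 0.078 (adjusted p = 0.811) to -0.34 ± 0.058 (adjusted p = 7.33e-05). The Nfkb2 call was lost as well without IL-4 replicate 3, 4 or 5 and without the intensity filter (adjusted p = 0.0505).

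Whether the combined effect equals the sum of the single effects was tested by subtracting both single-cytokine differences from the difference in the combination, so that 0 is additive on the log2 scale. For IL-4 and IL-6, 40.0% of all genes departed from additivity (21.4% above the sum, 18.6% below), and of the 8 members 0 lay above and 5 below. Nfkbiz departed by -1.19 ± 0.10 (adjusted p = 3.98e-10), its difference being 0.96 with IL-6 alone and -0.23 when IL-6 was added to IL-4. Nfkbie departed by -0.67 ± 0.095 (adjusted p = 1.95e-06) and Nfkbia by -0.55 ± 0.091 (adjusted p = 1.90e-05), so both were lower in the combination than the single effects add up to. The IL-4+IL-6 means of Nfkbiz and Nfkbie lie under the limit, and the size of the Nfkbie departure may be limited by background. For Nfkbiz the IL-4 mean, 7.13, lies close to the limit as well. A rise with IL-6 on top of IL-4 could then go unseen, which by itself would give a negative departure. How much of the Nfkbiz departure comes from background was not tested. Bcl3 departed by -0.34 ± 0.12 (adjusted p = 0.0299) and Relb by -0.32 ± 0.12 (adjusted p = 0.0401).

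These last 2 calls hung on single arrays. Bcl3 was not called without IL-4 replicate 1 or 2, IL-6 replicate 1 or 2 or IL-4+IL-6 replicate 3 (adjusted p from 0.0506 to 0.0768). Relb was not called without any of 12 arrays, namely IL-4 replicates 1 to 3, IL-6 replicates 1 to 3, IL-4+IL-6 replicates 4 and 5 and unstimulated replicates 3, 4, 5 and 8 (adjusted p from 0.0524 to 0.0825). Without the intensity filter neither was called (adjusted p = 0.051 for Bcl3 and 0.0674 for Relb). With a term for the set the Bcl3 departure was -0.32 ± 0.13 (adjusted p = 0.0513). Both were called with the replicate block within set, and Nfkb2 (-0.25 ± 0.067, adjusted p = 0.00386) and Rela (-0.21 ± 0.048, adjusted p = 0.00117) were called below the sum as well. Rela was called without unstimulated replicate 7 too, at -0.18 (adjusted p = 0.0301).

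For IL-4 and IL-10, 25.6% of all genes departed from additivity (15.5% above, 10.1% below), and of the members 0 lay above and 3 below. These were Nfkbiz at -1.38 ± 0.12 (adjusted p = 2.44e-09), Bcl3 at -0.66 ± 0.14 (adjusted p = 0.00119) and Nfkbia at -0.44 ± 0.11 (adjusted p = 0.00325). The test runs across the sets, since IL-4 lies in a different one from IL-10 and IL-4+IL-10, so a difference between the sets can enter these departures. The IL-4+IL-10 mean of Nfkbiz, 6.72, lies under the limit and its IL-4 mean, 7.13, close to it. A rise with IL-10 on top of IL-4 could go unseen here too, and how much of the departure comes from background was not tested. The second Nfkbiz probe set, under the limit with IL-4 and with IL-4+IL-10, departed by -0.85 ± 0.25 (adjusted p = 0.0157). Nfkbia was not called by another of its probe sets (-0.24 ± 0.15, adjusted p = 0.249), and its remaining probe sets were called below the sum. Nfkbie was -0.19 ± 0.11 (adjusted p = 0.229). The replicate block within set called 6 members, adding Nfkbie (-0.26 ± 0.087, adjusted p = 0.0226), Relb (-0.21 ± 0.069, adjusted p = 0.0196) and Rela (-0.16 ± 0.055, adjusted p = 0.0235). Of all 7153 genes tested it called 2591, against 1833 without the block. Rel lay near additivity in both tests, at 0.14 ± 0.10 with IL-6 (adjusted p = 0.274) and -0.02 ± 0.12 with IL-10 (adjusted p = 0.943).

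**Figure D5:**
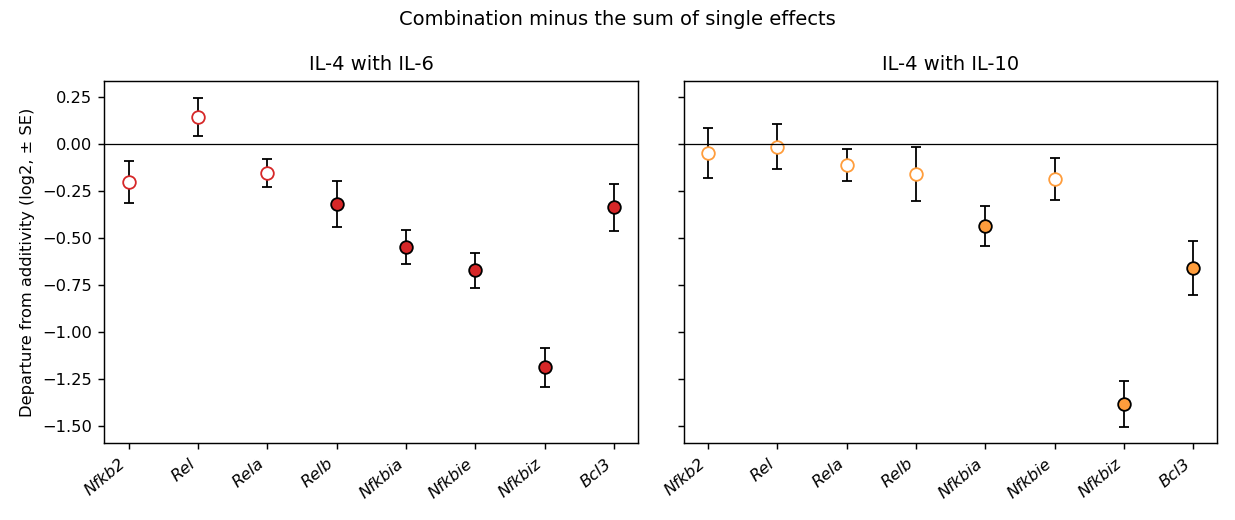
Departure of the combination from the sum of the single effects (log2, with SE) for the 8 tested members, for IL-4 with IL-6 on the left and IL-4 with IL-10 on the right; filled circles are called at an adjusted p under 0.05 and 0 is additive. Nfkbiz departs most in both panels, at -1.19 and -1.38, with means near or under the intensity limit in the groups with IL-4.

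IL-10 and IL-6 were set against each other directly. Of all genes 11.9% were called (6.26% higher with IL-10, 5.62% lower), and of the members 3 were higher and 0 lower, namely Nfkbia at 0.36 ± 0.078 (adjusted p = 0.00844), Rel at 0.28 ± 0.088 (adjusted p = 0.0405, the IL-6 mean lying under the limit) and Rela at 0.24 ± 0.062 (adjusted p = 0.0203). These groups lie in different sets. With a term for the set, and with the replicate block within set, 0 members were called by limma and 0 had an unadjusted p under 0.05. Of all 7153 genes tested only 7 were called with the term and 18 with the block, so these counts are not particular to the members. The differences of Nfkbia, Rel and Rela were 0.04, 0.18 and 0.10 in that order, with adjusted p = 0.946, 0.638 and 0.704 under the block. Without IL-10 replicate 2 limma called 0 members as well, and 3 had an unadjusted p under 0.05 (adjusted p from 0.0624 to 0.163 for the 3 named). That fit called 89 genes in all. The Rel call was lost too without IL-10 replicate 1 or without IL-6 replicate 1, 3, 4 or 5, without the intensity filter (adjusted p = 0.0775) or with the 2 groups fitted by themselves (0.0913). Nfkbiz (0.01 ± 0.089, adjusted p = 0.923) and Bcl3 (0.08 ± 0.11, adjusted p = 0.661) were not called.

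In the comparison of both combinations 42.8% of genes were called (26.9% higher with IL-4+IL-10, 16.0% lower) and 4 members were higher with IL-4+IL-10 than with IL-4+IL-6. These were Nfkbie at 0.68 ± 0.082 (adjusted p = 4.15e-07), Nfkbia at 0.47 ± 0.078 (adjusted p = 3.69e-05), Relb at 0.42 ± 0.11 (adjusted p = 0.00221) and Rela at 0.28 ± 0.062 (adjusted p = 0.000949). With the replicate block within set 2 remained, Nfkbie at 0.47 ± 0.087 (adjusted p = 0.000435) and Relb at 0.29 ± 0.069 (adjusted p = 0.00371), while Nfkbia was 0.15 ± 0.058 (adjusted p = 0.0583) and Rela 0.14 ± 0.055 (adjusted p = 0.0617). Nfkbie alone was called with a term for the set. Of all 7153 genes tested, 1914 were called with the block and 1159 with the term, against 3063 without either. Bcl3 was -0.24 ± 0.11 (adjusted p = 0.064) and was called lower at -0.38 (adjusted p = 0.0105) without IL-4+IL-10 replicate 2. Single arrays also brought calls for Nfkbiz (-0.23 without IL-4+IL-6 replicate 4 and -0.26 without IL-4+IL-10 replicate 2) and for Nfkb2 (0.28 without IL-4+IL-6 replicate 1).

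Ordered by group mean, IL-10 came first for 6 of the 8 tested members (Nfkb2, Rela, Relb, Nfkbia, Nfkbiz and Bcl3). IL-10 and IL-6 lie in different sets, and a fit with the set as a term put IL-6 above IL-10 for Nfkb2 (IL-10 minus IL-6 of -0.04) and Nfkbiz (-0.07). For 4 of these 6 the IL-10 arrays overlapped with the next group, IL-6, and for Rela and Nfkbia they did not, as for 22.2% of all genes tested. These 2 are also the members whose unstimulated arrays differed between the sets without overlap, and neither was called between IL-10 and IL-6 with a term for the set. Rel ran the other way, with IL-4, IL-4+IL-10 and IL-4+IL-6 first and overlapping, and then a gap to unstimulated. Nfkbie was highest on unstimulated arrays, next to IL-10 with which they overlapped.

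For Nfkb2, Nfkbia and Nfkbiz the array held more than 1 probe set, and the choice among them changed some calls for each gene. Taken each by itself, 57.0% of 11132 probe sets tested were called with IL-4 against unstimulated, and 12 of the 13 member probe sets tested. For IL-6 the share was 37.2% and the member count 8, and for IL-10 they were 37.4% and 9. For IL-4+IL-6 they were 72.0% and 13, and for IL-4+IL-10 they were 70.9% and 11. The second Nfkb2 probe set correlated with the first at 0.365 over the 29 arrays, and it was -0.37 ± 0.094 (adjusted p = 0.00111) with IL-4+IL-10 where the first was 0.02. The second Nfkbiz probe set correlated with the first at 0.946 and moved the same way against unstimulated in all 5 stimulated groups. With IL-4+IL-10 against IL-4, however, both genes' probe sets were called in opposite directions, Nfkb2 at 0.25 and -0.25 and Nfkbiz at -0.41 and 0.43. The 4 Nfkbia probe sets all fell with IL-4 and both combinations, and 3 of them rose with IL-10, the other being 0.01. That other probe set was called higher with IL-6 (0.16 ± 0.058, adjusted p = 0.0306). It was called lower for IL-4+IL-10 against IL-4 (-0.43 ± 0.075, adjusted p = 2.71e-05), where the probe set used was -0.02.

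The rest of the pathway was read from 5 lists by role, for which the background shares above apply. The IKK complex and its upstream kinases had 10 tested genes. Of these 1 was higher and 7 lower with IL-4, 3 and 3 with IL-6, 1 and 1 with IL-10, 1 and 9 with IL-4+IL-6, and 0 and 8 with IL-4+IL-10. Their medians ran from -0.36 with IL-4+IL-6 to -0.01 with IL-10. Ikbke, an IKK-related kinase of the interferon pathway, differed by -0.56 with IL-4 (1.47-fold lower), -0.95 with IL-4+IL-6 and -0.83 with IL-4+IL-10, and rose by 0.35 with IL-6. Tab2, an adaptor of the kinase TAK1, rose by 0.29 with IL-6 and 0.38 with IL-10 and fell by 0.43 with IL-4. Map3k14, the kinase that starts non-canonical signalling, fell to means under the limit in all 3 groups with IL-4.

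Adaptors of receptor signalling had 8 tested genes, with 1 higher and 1 lower with IL-4, 1 and 0 with IL-6, 3 and 1 with IL-10, 4 and 3 with IL-4+IL-6 and 3 and 2 with IL-4+IL-10. Myd88, the adaptor of Toll-like and IL-1 receptors, rose by 0.97 ± 0.046 with IL-6 (1.95-fold) and 0.96 ± 0.055 with IL-10 (1.95-fold) and fell by 0.34 ± 0.046 with IL-4. Traf5, an adaptor of TNF receptors, rose by 1.22 ± 0.065 with IL-4 (2.33-fold) and by 0.92 and 1.13 in the combinations with IL-6 and IL-10. Receptors that activate NF-kappaB had 11 tested genes, with 4 higher and 7 lower with IL-4, 6 and 1 with IL-6, 6 and 1 with IL-10, 6 and 5 with IL-4+IL-6 and 6 and 5 with IL-4+IL-10. Cd14, the co-receptor that hands lipopolysaccharide to Tlr4, fell by 1.78 ± 0.055 with IL-4 (3.43-fold lower), and its differences were -2.58 with IL-4+IL-6 and -2.55 with IL-4+IL-10. Cd14 is also 1 of the macrophage markers above. Cd40, a TNF-family receptor, rose by 1.11 with IL-6 (2.16-fold) and by 1.25 with IL-10 (2.39-fold), and Tlr2, the receptor for bacterial lipopeptides, fell by 1.71 with IL-4 (3.26-fold lower). Il1r1, the IL-1 receptor, lay under the limit in all 8 unstimulated arrays (mean 5.22) and had a mean of 8.67 with IL-4+IL-6.

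Other inhibitors had 10 tested genes, with 4 higher and 4 lower with IL-4, 2 and 3 with IL-6, 1 and 5 with IL-10, 5 and 4 with IL-4+IL-6 and 4 and 5 with IL-4+IL-10. Pdlim2, a ubiquitin ligase that removes nuclear RelA, was -0.45 with IL-4, -0.54 with IL-6 and -0.37 with IL-10, all called, and lay under the limit in both combinations. Tnip1, a partner of the Tnfaip3 protein, fell by 0.94 ± 0.057 with IL-4+IL-6 (1.91-fold lower). Zc3h12a, an RNase that destroys cytokine mRNAs, rose by 0.41 with IL-4 and 0.72 with IL-4+IL-10.

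Target genes had 17 tested genes of 23 measured. Of these 3 were higher and 8 lower with IL-4, 7 and 3 with IL-6, 7 and 4 with IL-10, 4 and 11 with IL-4+IL-6, and 6 and 11 with IL-4+IL-10, at medians of -0.15, 0.06, 0.21, -0.84 and -0.63. Il1b, the precursor of the cytokine IL-1beta, rose by 1.33 ± 0.13 with IL-6 (2.52-fold) and by 2.24 ± 0.16 with IL-10 (4.73-fold). Cxcl1 and Cxcl2, neutrophil chemoattractants, fell to means under the limit in all 3 groups with IL-4, from 7.36 and 8.48 on unstimulated arrays. Ier3, a stress-responsive survival gene, rose in all 5 groups, by 1.84 with IL-4 (3.57-fold), 1.59 with IL-6, 2.16 with IL-10, 3.36 with IL-4+IL-6 (10.2-fold) and 3.37 with IL-4+IL-10 (10.3-fold).

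The members were set beside each other and beside all other genes tested by Pearson correlation over the 29 arrays, which share groups and sets, as a description. Relb and Nfkbia ran together (0.925), as did Relb with Rela (0.915) and with Nfkbiz (0.908). Rel ran against all 7 other tested members, most against Nfkbiz (-0.932) and Relb (-0.801), and Bcl3 and Nfkbie were nearly unrelated (-0.0873). Outside the members, the genes most like Nfkbiz were Cd302 (0.991), Fyb (0.991) and Fcrl1 (0.987), and those most like Bcl3 were Myd88 (0.978), Fcgr4 (0.970) and Ist1 (0.967). For Rel they were Sh3kbp1 (0.959), Etfa (0.957) and Ptgir (0.955), for Relb Hdac5 (0.966), Smagp (0.966) and Fcer1g (0.961), and for Rela Hdac5 (0.921), Rps9 (0.915) and Gpalpp1 (0.905). For Nfkbia they were Vasp (0.970), Gpr84 (0.969) and Syt11 (0.961), for Nfkbie Blvrb (0.968), Dapk1 (0.960) and Crybg1 (0.957), and for Nfkb2 Cxcl16 (0.908), Slc25a45 (0.888) and Usp21 (0.886).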

How the data were processed

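RNA of 29 macrophage samples was hybridised to Affymetrix arrays. The authors deposited log2 values, and per the submitters' processing notes these come from RMA, which corrects background, normalizes and summarises probes. GCOS 1.4 is named too, without its role. The RMA version and the arrays normalized jointly are not given in the sources used here. Values were used as deposited.

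The supplied annotation named 1 gene for 20380 probe sets after control probe sets were left out. Each gene was represented by its brightest probe set (highest mean of the 29 arrays). Genes were tested where at least 3 arrays exceeded the median of all values (log2 6.99). A single model of the 6 groups was fitted in limma 3.58.1 (R 4.3.3), with moderated two-sided tests per gene, p-values adjusted after Benjamini and Hochberg across 7153 genes, and calls made under an adjusted p of 0.05. The script was tested on simulated data.

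The members, role lists and alternatives were chosen with earlier results of these data known. Named genes are the members, up to 3 called genes with the largest difference per role list and comparison with unstimulated (not all printed), and the 3 genes most correlated with each member.

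Replicate numbers paired the arrays of the unstimulated (1 to 5), IL-4, IL-6 and IL-4+IL-6 groups, with deviations from the group means that correlated at 0.415 or more between arrays of the same number. They also paired IL-10 with IL-4+IL-10 (0.596 or more). The pairing comes from the data, since the labels give the numbers without saying what they mark. Between the sets of groups the labelled numbers did not pair the arrays (-0.46 to 0.429 for unstimulated and IL-10). Unstimulated 6 to 8, renumbered, correlated with IL-10 at 0.116 or more. The block used numbers within these 2 sets. Alternatives were other normalizations, filters, probe set summaries, moderation, array weights, fewer groups, a stricter threshold, both blocks, a term for the set, controls of the same set and leaving out each array.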

Additional observations from a re-analysis of the deposited data

Results flagged for a closer look

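Of 36 sets of values checked (9 members in the 4 groups of 5 or more arrays), 1 held an array far from the others by Dixon's ratio. Nfkb2 on unstimulated replicate 5 was 7.82, against 8.14 to 8.29 on the other 7 unstimulated arrays, and the gap to the nearest array divided by the whole range was 0.663. Chance alone sets apart about 1 in 20 such sets.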

How the results depend on the processing

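Counts are members called. With the filter at the 75th percentile 4 members were tested, and the counts were 4 for IL-4, 2 for IL-6, 4 for IL-4+IL-6 and 3 for IL-4+IL-10 against unstimulated, 4 for IL-4+IL-6 against IL-6, 4 for IL-4+IL-10 against IL-10, 3 for IL-4+IL-10 against IL-4, 2 for IL-4+IL-10 against IL-4+IL-6 and 3 for the interaction of IL-4 and IL-6. The fewer members tested account for these drops, and for 25 called differences of member probe sets from unstimulated in place of 53. The interaction of IL-4 and IL-6 gave 3 without an intensity filter and 3 at a threshold of 0.01, at which IL-10 against IL-6 gave 1. With a term for the set, IL-10 against IL-6 gave 0 and IL-4+IL-10 against IL-4+IL-6 gave 1. The replicate block within set gave them 0 and 2, and the interaction of IL-4 and IL-10 6. The number of all genes called changed with these fits too, as given beside the results. Leaving out single arrays gave 0 to 3 for IL-10 against IL-6, 3 to 6 for IL-4+IL-10 against IL-4 (3 without IL-4+IL-10 replicate 2) and 3 to 6 for the interaction of IL-4 and IL-6 (3 without IL-4 replicate 1 or 2 or IL-6 replicate 1 or 2). Averaging all probe sets of a gene, IL-4+IL-10 against IL-4 changed sign to -0.0010 for Nfkb2 and 0.010 for Nfkbiz, and Nfkb2 with IL-4+IL-10 was -0.18. Of 1224 member results without 1 array, 47 lost a call, 8 gained one and 0 called values changed sign. The block changed no other call than those given beside the results. Controls of the same set give no value for comparisons without unstimulated arrays. The number of arrays, 3 in both IL-10 groups, and signal near background for Rel, Nfkbie, Nfkbiz and Tnfaip3 limit these values.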
